A study of Homo sapiens with 18 samples.

Results

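The line difference in the triptolide response asks, gene by gene, whether the transcription inhibitor changed RNA levels by a different amount in cells with a knockdown of ADAR than in control cells. It was measured in ZR-75-1 cells, an established human line of luminal breast cancer, as the knockdown line's change from DMSO to triptolide minus the control line's change. The 12 libraries that carry this contrast were taken by their sample titles, out of 18 in the series. They were 3 libraries each of control cells with DMSO, control cells with triptolide, knockdown cells with DMSO and knockdown cells with triptolide. The control line is called SHC in the labels and the other ADAR KD. Both received 100 nM triptolide, or DMSO given with the same figure of 100 nM, for 16 h in medium with 1% serum. The remaining 6 libraries, from untreated cells of both lines, were used here only as a second reference. The labels name 1 knockdown line and do not say how it was made, so an effect of the knockdown cannot be told apart from any other difference between the lines. Replicates 1 to 3 are named biological replicates in the titles. In what follows the difference is called the interaction and given on the log2 scale: a positive value means that the level rose more, or fell less, in knockdown cells.

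ADAR encodes ADAR1, which edits double-stranded RNA by deaminating adenosine to inosine. This editing marks a cell's own RNA, and without it double-stranded RNA can set off the sensors that start an interferon response. Triptolide binds the XPB subunit of TFIIH, a factor that opens DNA at promoters for RNA polymerase II, and so stops new mRNA from being made. Under such a block, mRNAs with short lives are lost first and stable ones make up a growing share of what is left, so the level of a transcript after the inhibitor reflects both how fast it decays and what still makes it.

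The 12 libraries held 27317278 to 35674502 counts in genes. Of these, 20.2 to 37.1% fell on mitochondrial ribosomal RNA with DMSO and 42.7 to 55.2% with triptolide, so the remaining genes were read less deeply after the inhibitor. Levels are given as CPM, counts scaled by TMM to a common library total, which are relative: they do not show how much RNA a cell holds, and fewer cells of a kind cannot be told apart from less RNA per cell. All 10 luminal markers reached a mean of 1 CPM in at least 1 group, against 3 of 6 basal, 2 of 6 leukocyte, 1 of 6 stromal and 1 of the 3 endothelial markers that were matched.

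ADAR itself was read first, since it checks the labels. With DMSO it stood at 434, 629 and 265 CPM in control replicates 1, 2 and 3 and at 277, 337 and 205 CPM in the knockdown replicates. With triptolide it stood at 331, 441 and 301 CPM in control cells and at 103, 155 and 133 CPM in knockdown cells. In each of the 6 pairs with the same number and treatment the knockdown library was the lower one, and with triptolide the lines did not overlap. Knockdown cells held 53.5 to 77.6% of the control level with DMSO and 31.1 to 44.3% with triptolide. The line difference did not pass with DMSO (log2 -0.66, adjusted p = 0.0807, edgeR) and passed with triptolide (-1.44, adjusted p = 0.000133). ADAR fell with triptolide in knockdown cells, by 1.04 on the log2 scale (adjusted p = 3.66e-05, edgeR), while the change of -0.26 in control cells did not pass (adjusted p = 0.183). The interaction was -0.78 ± 0.23 (SE), negative for each replicate number, and did not pass over all genes (adjusted p = 0.988). The gene lies on chromosome 1 at 154554171 to 154600489 of GRCh37. The related editing enzyme ADARB1 had an interaction of -0.05 ± 0.24, with 5.45 to 9.81 CPM in the 12 libraries. ADARB2, a relative without known editing activity, had 0 to 12 counts per library and did not pass the low-count filter.

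Most genes that changed with triptolide in one line were also called, in the same direction, in the other. Triptolide lowered 5574 of 20605 genes tested in control cells (27.1%) and raised 5672 (27.5%). In the knockdown line it lowered 5987 (29.1%) and raised 6334 (30.7%). These comparisons share no library. Genes lower in both lines numbered 4995, which is 89.6% of those lower in control cells and 83.4% of those lower in knockdown cells. Genes higher in both numbered 4999, or 88.1% and 78.9%. No gene was higher in control and lower in knockdown cells, and 2 genes, IL12RB1 and PGAM1P8, were lower in control and higher in knockdown cells.

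The interaction itself was called for 0 genes (0%) at an adjusted p under 0.05 by edgeR's quasi-likelihood test. At an unadjusted p under 0.05 it counted 420 genes higher (2.04%) and 471 lower (2.29%), together 4.32% of the genes tested. Were there no interaction in any gene, a share of about 0.05 would pass this threshold, and the share found was not above it. Of the alternatives, DESeq2 called 4 genes, all higher: CUBN, COL6A3, MAPK8IP3 and PGAM1P8. Without the low-count filter edgeR called 19 genes among 47046, with those 4 and RHPN1, TLR6, ENSG00000237640 and MT-CO1 among them. The replicate number entered as a block; without the block the count of calls was also 0, with 183 genes at an unadjusted p under 0.05.

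**Figure D1:**
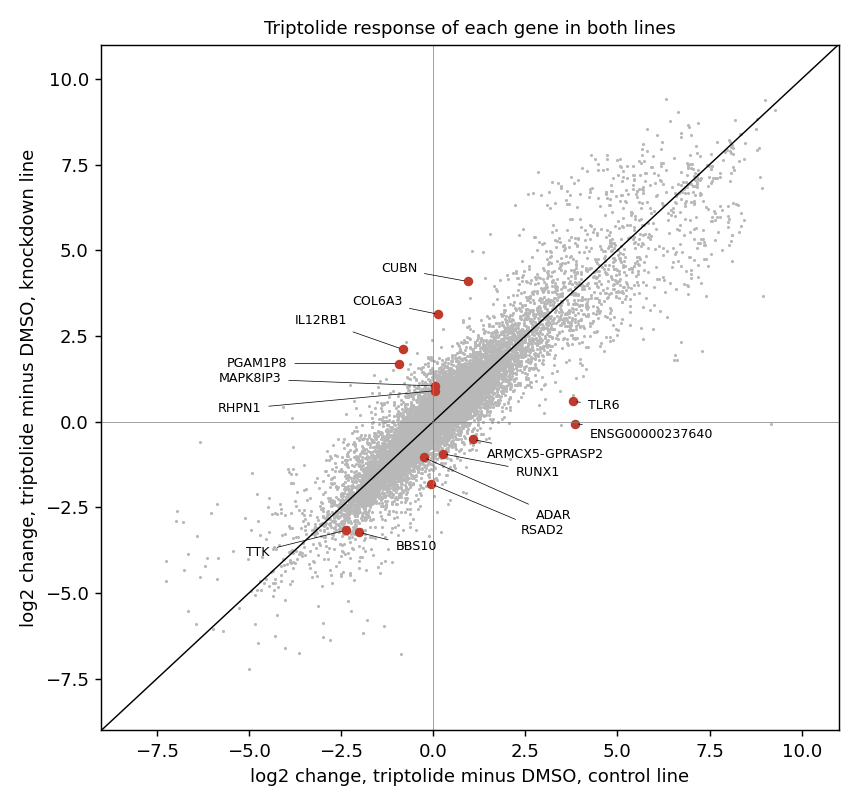
Change from DMSO to triptolide (log2) of each of the 20605 genes tested, in control cells on the x axis and in knockdown cells on the y axis. The diagonal marks equal responses, and red points are the 10 genes with the smallest interaction p in either direction, with ADAR, IL12RB1, RSAD2 and TTK. Genes lie along the diagonal, and CUBN and COL6A3 stand above it with interactions of 3.16 and 2.99.

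How small a difference the libraries could have shown depends on the level of the gene. The 95% interval of the interaction lay within 1 log2 unit of 0, that is within a factor of 2 in either direction, for 7954 of the 8364 genes with a mean of at least 10 CPM (95.1%). For genes of at least 1 CPM this held for 10920 of 14389 (75.9%), and for all genes tested for 10941 of 20605 (53.1%). Below 1 CPM it was rare, at 0.338% of 6216 genes. The median half-width of the interval fell from 1.64 log2 units below 1 CPM to 0.372 at 100 CPM and over.

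**Figure D2:**
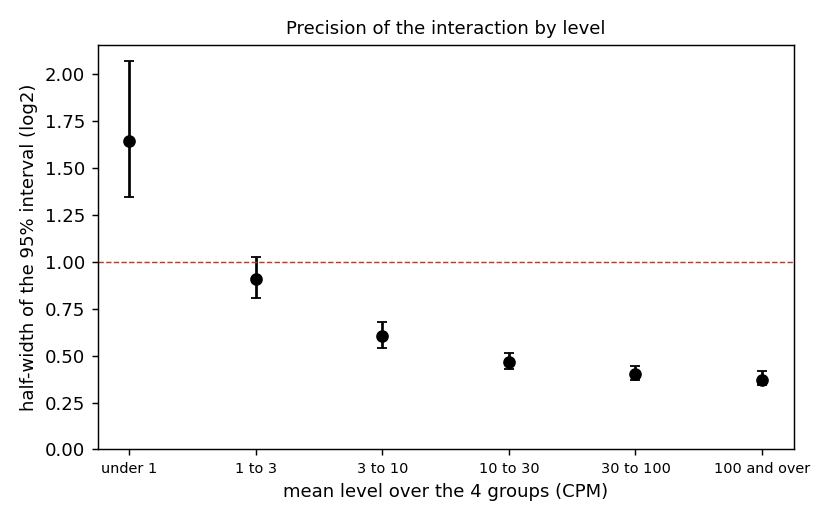
Half-width of the 95% interval of the interaction (log2, y axis) by mean level of the gene over the 4 groups (CPM, x axis); points are medians over genes and bars run from the lower to the upper quartile. The dashed line marks 1 log2 unit, which the median stays below from 1 CPM upwards, at 0.906 between 1 and 3 CPM and 0.372 at 100 CPM and over.

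The genes with the largest responses are given as a description only, since the mean over both lines, by which they were picked, favours genes that respond in both. The 4 protein-coding genes with the largest mean fall at 10 CPM or more, picked after their values were seen, were all replication-dependent histone genes: the linker histones H1-3, H1-5 and H1-4 and the core histone H2BC14. H1-3 stood at 112, 171 and 105 CPM with DMSO and 1.16, 2.60 and 2.46 CPM with triptolide in control cells. In knockdown cells it stood at 120, 138 and 106 CPM with DMSO and 1.52, 1.5 and 2.36 CPM with triptolide. The levels of both lines overlapped in each treatment, and the fall was 62.9-fold in control and 66.2-fold in knockdown cells. The interaction of H1-3 was -0.07, with a 95% interval from -0.75 to 0.60. H1-5 had -0.38 (-1.18 to 0.41), or -0.99 without knockdown triptolide replicate 3, H1-4 -0.15 (-1.05 to 0.75) and H2BC14 -0.13 (-0.81 to 0.56).

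Among the largest mean rises, HAP1, which encodes a huntingtin-associated protein, went from 1.93, 0.723 and 1.40 CPM to 48.6, 23.6 and 32.1 CPM in control cells. Knockdown cells went from 1.32, 1.15 and 1.69 CPM to 42.3, 22.0 and 23.1 CPM. These are rises of 25.7-fold and 20.4-fold, with overlapping libraries and an interaction of -0.34 (95% interval -0.97 to 0.29). ZNF425, a zinc finger gene, rose 8.58-fold and 7.51-fold, and TEX14, known from germ cell bridges, 8.51-fold and 7.12-fold. The interactions of both were -0.19 and -0.26, with 95% intervals that each lay within 1 log2 unit of 0.

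The 5 genes with the smallest p among positive interactions were CUBN, COL6A3, MAPK8IP3, PGAM1P8 and RHPN1, none of them called. CUBN encodes cubilin, a receptor for the intrinsic factor and vitamin B12 complex. In control replicates 1, 2 and 3 it stood at 6.09, 20.2 and 6.94 CPM with DMSO and 11.4, 32.4 and 16.3 CPM with triptolide. In the knockdown line the levels were 0.0228, 0.5997 and 0.215 CPM with DMSO and 4.40, 5.87 and 2.53 CPM with triptolide. Every knockdown library was below every control library with the same treatment, and the gap narrowed with triptolide. CUBN rose 1.91-fold in control cells (adjusted p = 0.0049) and 17.1-fold in knockdown cells (adjusted p = 1.30e-07).

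The interaction of CUBN was 3.16 ± 0.47 (SE), with 5.93, 2.57 and 2.23 for replicates 1, 2 and 3, and missed the threshold at adjusted p = 0.0648. The DMSO knockdown libraries held 32 CUBN counts in all, and the knockdown library at 0.0228 CPM gives the high value of replicate 1. Over the alternatives the adjusted p lay on both sides of 0.05. It passed with DESeq2 (adjusted p = 0.0363), with all 18 libraries in the fit (0.0431), without the low-count filter (2.19e-14), and with untreated libraries in place of DMSO, where the interaction was 3.54 ± 0.49 (adjusted p = 0.0342). Without the filter the interaction was 3.16, as in the reported fit, so the small adjusted p there reflects no larger difference. What made it small was not tested. Without the replicate block it was 3.08 with an adjusted p of 1. With the block it also passed without knockdown triptolide replicate 1 or 2, without knockdown DMSO replicate 2 and without control triptolide replicate 3. Untreated control cells stood at 5.06, 23.6 and 8.52 CPM and untreated knockdown cells at 0.130, 0.256 and 0.247 CPM, so the lines were apart there as with DMSO. CUBN lies on chromosome 10 at 16865965 to 17171810 of GRCh37, with no overlapping gene in the annotation.

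COL6A3 encodes a chain of collagen VI. It stood at 2.11, 1.79 and 2.13 CPM with DMSO and 2.07, 1.92 and 2.65 CPM with triptolide in control cells. Knockdown replicates 1, 2 and 3 had 0.296, 0.469 and 0.0805 CPM with DMSO and 3.81, 2.43 and 1.45 CPM with triptolide. The lines were apart with DMSO, where the knockdown was lower (log2 -2.84, adjusted p = 0.00138), and overlapped with triptolide (0.14, adjusted p = 0.945). COL6A3 rose 8.78-fold in knockdown cells (adjusted p = 6.92e-06) and had a change of 0.15 in control cells (adjusted p = 0.747). Its interaction was 2.99 ± 0.55 (adjusted p = 0.287), with 3.64, 2.23 and 3.61 by replicate number. It passed with DESeq2 (adjusted p = 0.00386), without the filter (8.19e-07) and without knockdown DMSO replicate 2 (0.0368). With the untreated reference it was 2.56 ± 0.53. The stromal marker list had 1 of 6 genes at 1 CPM, 1 at 0 in all 12 libraries, and a summed level of 10.8 to 13.6 and 13.3 to 20.5 CPM in control cells and 8.07 to 15.5 and 13.5 to 31.6 CPM in knockdown cells with DMSO and triptolide; the part of other cell types in the COL6A3 values was not tested.

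MAPK8IP3 encodes JIP3, a scaffold of JNK signalling and a motor adaptor in axons, and was the most abundant of the genes that DESeq2 called. It stood at 60.4, 48.1 and 48.9 CPM with DMSO and 68.6, 46.8 and 50.4 CPM with triptolide in control cells. The knockdown libraries held 27.7, 17.4 and 17.4 CPM with DMSO and 52.2, 42.1 and 33.1 CPM with triptolide. The lines were apart with DMSO and overlapped with triptolide. The line difference was -1.36 with DMSO (adjusted p = 1.11e-05) and -0.38 with triptolide (adjusted p = 0.303), and triptolide raised the gene 2.06-fold in knockdown cells (adjusted p = 3.04e-06). Its interaction was 0.98 ± 0.18 (adjusted p = 0.287; 0.00595 with DESeq2). With untreated libraries as the reference it was 0.45 ± 0.23. Antisense and other genes overlap MAPK8IP3, and whether the counting used strand is not given in the sources used here, so reads of overlapping genes on opposite strands may not have been separated. The same limit holds for other named genes with a gene on the opposite strand, among them IL12RB1 (MAST3), CXCL10 (ART3), DNAJB1 (TECR), RPL28 (UBE2S), NDUFB8 (HIF1AN), ZFAS1 (ZNFX1) and SNHG8 (PRSS12).

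PGAM1P8 is a processed pseudogene of a glycolytic enzyme gene, and reads from the parent gene may have been counted there. It stood at 3.47, 2.63 and 3.75 CPM with DMSO and 1.87, 1.00 and 2.32 CPM with triptolide in control cells. In knockdown cells it stood at 0.114, 0.339 and 0.268 CPM with DMSO and 0.888, 0.926 and 0.539 CPM with triptolide. It fell in control and rose in knockdown cells, in each pair of libraries with the same number, and had an interaction of 2.63 ± 0.55 (adjusted p = 0.679, and 0.0422 with DESeq2). Against untreated libraries the interaction of PGAM1P8 was 1.56 ± 0.61. RHPN1, which encodes a rho-binding scaffold called rhophilin, stood at 65.0 to 127 CPM in control cells with DMSO and 65.2 to 132 with triptolide, and at 45.2 to 96.5 and 86.6 to 159 CPM in knockdown cells. The lines overlapped in both treatments, and the interaction was 0.86 ± 0.18 (adjusted p = 0.679), or 0.28 ± 0.33 against untreated libraries.

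IL12RB1, a receptor chain for interleukins 12 and 23, was the other gene called in opposite directions. It had 2602 counts in the 3 control DMSO libraries and 898 with triptolide, against 4 and 12 counts in the knockdown libraries. It was far lower in knockdown cells in both treatments, by log2 -9.29 with DMSO and -6.36 with triptolide. The interaction of 2.93 ± 0.71 (adjusted p = 0.988) therefore rests on 16 knockdown counts in all. In CUBN, COL6A3, MAPK8IP3, PGAM1P8 and IL12RB1 alike, the knockdown level was called lower than control with DMSO; since that difference enters the interaction with the opposite sign, the sign of both is not independent.

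**Figure D3:**
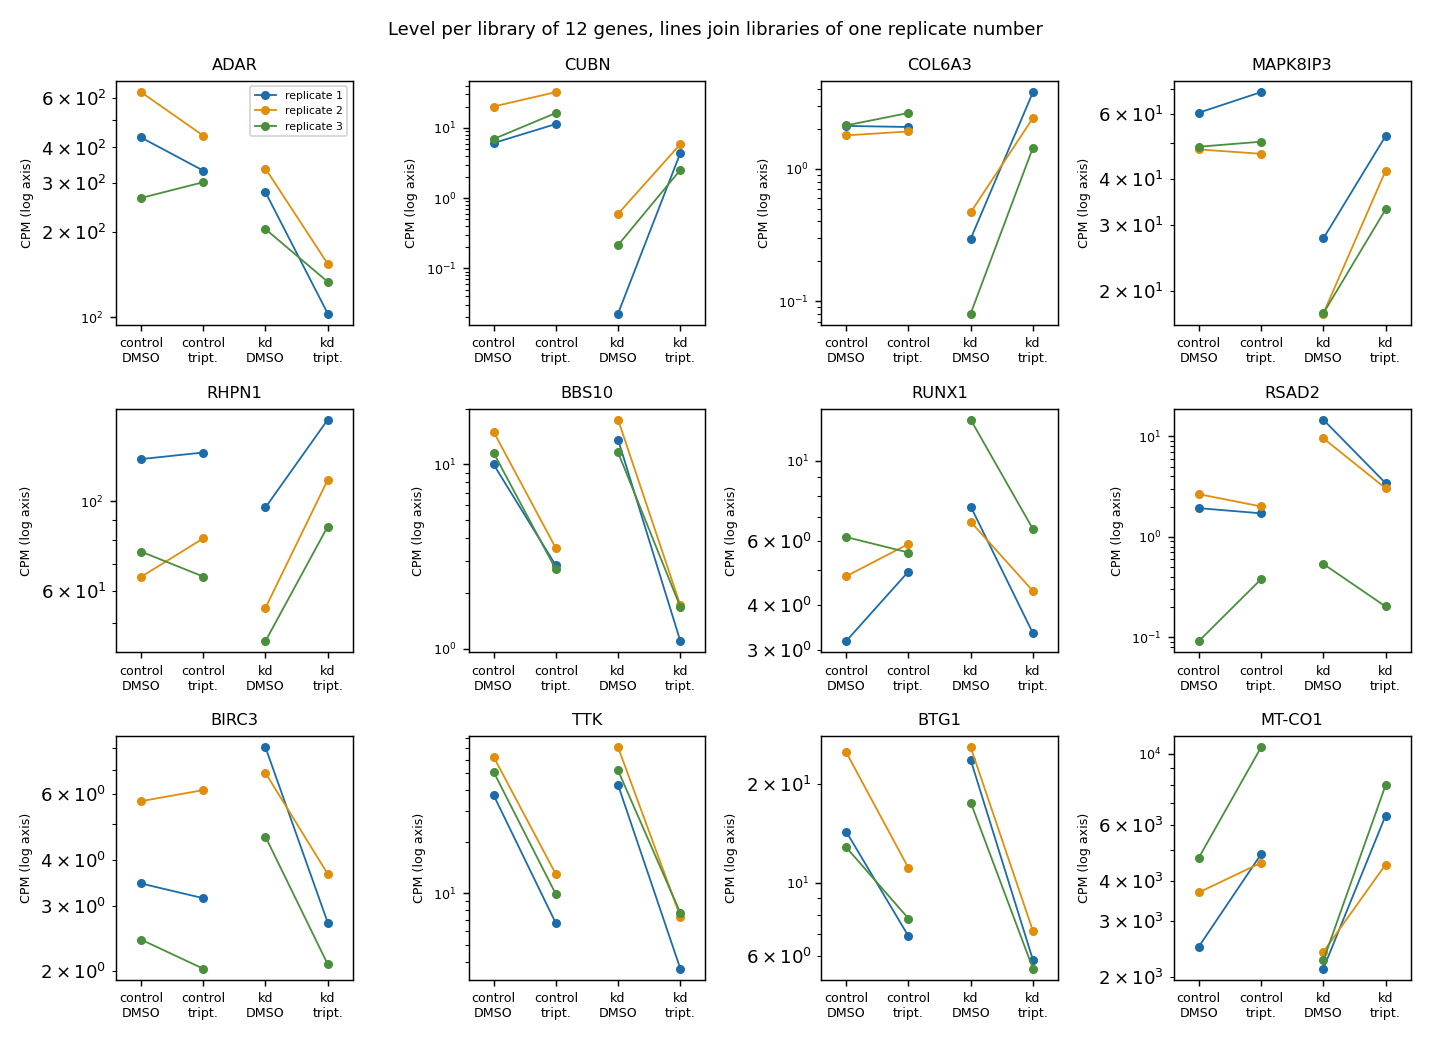
Level of 12 named genes in each of the 12 libraries (CPM, log axis), by line and treatment; kd stands for knockdown, and lines join the DMSO and triptolide libraries of one replicate number within a line. CUBN and COL6A3 are lower in the knockdown DMSO libraries than in every control library, and TTK and BTG1 fall in both lines, further in knockdown cells.

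The 5 genes with the smallest p among negative interactions were BBS10, ENSG00000237640, TLR6, RUNX1 and ARMCX5-GPRASP2, again none of them called. BBS10, a chaperonin-like gene of the Bardet-Biedl syndrome, stood at 10.0, 15.1 and 11.6 CPM with DMSO and 2.83, 3.51 and 2.69 CPM with triptolide in control cells. In the knockdown line the levels were 13.6, 17.5 and 11.6 CPM with DMSO and 1.10, 1.72 and 1.69 CPM with triptolide. The lines overlapped with DMSO and were apart with triptolide. BBS10 fell 4.02-fold in control and 9.37-fold in knockdown cells, an interaction of -1.22 ± 0.26 (adjusted p = 0.679) with -1.79, -1.24 and -0.68 by replicate number. Against untreated libraries it was -0.92 ± 0.28.

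RUNX1, a transcription factor of the runt family, stood at 3.18, 4.80 and 6.15 CPM with DMSO and 4.94, 5.89 and 5.58 CPM with triptolide in control cells. Knockdown replicates 1, 2 and 3 had 7.47, 6.78 and 13.0 CPM with DMSO and 3.34, 4.37 and 6.47 CPM with triptolide. Knockdown libraries were above control libraries with DMSO (log2 0.94, adjusted p = 0.0299, edgeR), and the lines overlapped with triptolide. RUNX1 fell in knockdown cells (1.92-fold, adjusted p = 0.000658), and its change in control cells was 0.27 (adjusted p = 0.274), an interaction of -1.21 ± 0.29 (adjusted p = 0.988). Its span holds several other genes on the opposite strand.

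The remaining genes of this set were low. TLR6, a Toll-like receptor whose span overlaps TLR1, had an interaction of -3.21 ± 0.73, or -2.10 ± 0.76 against untreated libraries. It had 7 counts in control DMSO libraries, 64 in control triptolide, 66 in knockdown DMSO and 64 in knockdown triptolide libraries. ENSG00000237640 lies opposite GJC3 on chromosome 7 and had 3, 29, 184 and 93 counts in the same order, so its interaction of -3.91 ± 0.85 rests on 3 counts in control DMSO cells. It was -6.56 without control DMSO replicate 1 and -2.38 with the untreated reference. For TLR6 and ENSG00000237640 alike, the control DMSO libraries were the low group in the reported fit. With DMSO, RUNX1, TLR6 and ENSG00000237640 were called higher in knockdown than in control cells (log2 0.94, 3.10 and 5.59). That difference enters the interaction with the opposite sign, so the negative sign of these interactions is not independent of it. ARMCX5-GPRASP2, a readthrough transcript whose span overlaps ARMCX5 and GPRASP2 on the same strand, had -1.60 ± 0.41, or -0.91 ± 0.41 against untreated libraries. Reads tallied as ambiguous between genes were left out of its counts.

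**Figure D4:**
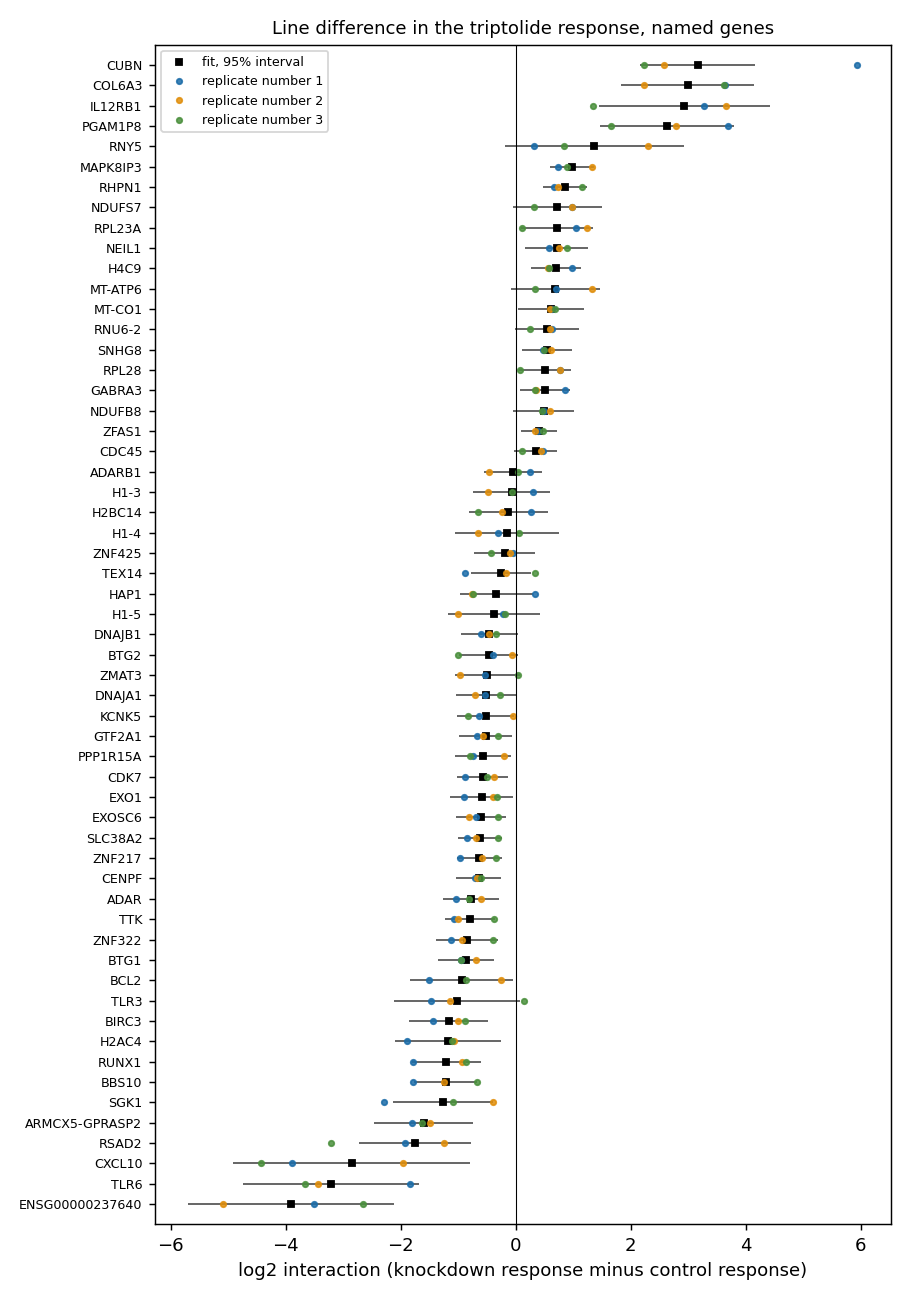
Interaction (log2, x axis) of the named genes (y axis), with black squares for the fit, bars for its 95% interval and colored points for the value of each replicate number. IL1B and 2 small nucleolar RNAs with few counts are left out, as is KLLN, a gene with a large mean rise in both lines. The intervals of CUBN and COL6A3 start at 2.16 and 1.83, and those of the histones H1-3, H1-4 and H2BC14 span 0.

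The gene lists were read by how many of their tested members stood on each side, beside the same over all genes, for which the median interaction was -0.01 and 10664 of 20605 values were below 0. Over all genes tested, 2.29% were lower and 2.04% higher at an unadjusted p under 0.05 (edgeR). Every list count at that threshold, here and below, is to be read beside these shares, and counts of a few genes decide nothing about a list. No list held a called gene. Genes of G2 and M phase, which drive the entry into mitosis and build the spindle, lay mostly below 0. Of 52 genes tested, 47 had a negative interaction and 11 were lower at an unadjusted p under 0.05, against 0 higher, with a median of -0.32. In control cells 42 of the 52 fell with triptolide and in knockdown cells 45, with median changes of -0.90 and -1.04. The median interaction was -0.38, -0.31 and -0.21 by replicate number and -0.16 with the untreated reference.

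TTK, the spindle checkpoint kinase MPS1, stood at 37.3, 62.4 and 51.0 CPM with DMSO and 6.70, 12.9 and 9.88 CPM with triptolide in control cells. The knockdown libraries held 42.7, 70.8 and 51.9 CPM with DMSO and 3.64, 7.32 and 7.68 CPM with triptolide. For each replicate number the knockdown library was the higher one with DMSO and the lower one with triptolide, though the ranges of the lines overlapped. TTK fell 5.17-fold in control and 8.98-fold in knockdown cells, an interaction of -0.80 ± 0.21 (adjusted p = 0.988).

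CENPF, a large kinetochore protein of the same list, stood at 207, 244 and 281 CPM with DMSO and 63.1, 82.4 and 102 CPM with triptolide in control cells. In knockdown cells it stood at 267, 293 and 448 CPM and at 49.8, 62.3 and 108 CPM. The lines overlapped in both treatments, and falls of 3.00-fold and 4.69-fold gave an interaction of -0.65 ± 0.18 (adjusted p = 0.988). Against untreated libraries that of CENPF was -0.12 ± 0.20, and that of TTK -0.63 ± 0.21. Other members lower at an unadjusted p under 0.05, named after their values were seen, were the kinetochore genes CENPE (-0.58), NDC80 (-0.55) and CENPA (-0.67), the kinesins KIF14 (-0.66), KIF11 (-0.60) and KIF20B (-0.64), the spindle genes ASPM (-0.75) and HMMR (-0.54), and the mitotic kinase AURKA (-0.61). S phase genes lay closer to 0, with a median of -0.06 over 56 genes and 1 lower, EXO1, an exonuclease of DNA repair, at -0.59 ± 0.26. CDC45, a part of the replicative helicase, had 0.35 ± 0.18.

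Immediate early and short-lived mRNAs had a median of -0.30 over 47 genes, with 36 values below 0, 6 genes lower and 1 higher at an unadjusted p under 0.05. The median differed between replicate numbers, at -0.48, 0.11 and -0.44. BTG1, an antiproliferative gene that recruits the CCR4-NOT deadenylase, stood at 14.3, 24.9 and 12.8 CPM with DMSO and 6.90, 11.1 and 7.80 CPM with triptolide in control cells. In the knockdown line the levels were 23.6, 25.8 and 17.5 CPM with DMSO and 5.84, 7.15 and 5.49 CPM with triptolide. The lines overlapped in both treatments. BTG1 fell 1.98-fold and 3.61-fold, with an interaction of -0.87 ± 0.23 (adjusted p = 0.988). SGK1, a serum- and glucocorticoid-induced kinase, rose 2.92-fold in control cells and had 1.21-fold in knockdown cells (adjusted p = 0.418), with -1.27 ± 0.41, or -0.74 without replicate 1.

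Genes that act on mRNA lifetime lay near 0: AU-rich element binding proteins and the decay machinery had a median of -0.03 over 79 genes, with 4 lower and 0 higher. Beside BTG1, which is also on this list, these were EXOSC6, a subunit of the RNA exosome, at -0.60 ± 0.20, CNOT6L, a deadenylase of CCR4-NOT, at -0.72 ± 0.25, and DDX6, a decapping helicase, at -0.50 ± 0.23. The transcription machinery, which holds the target of the inhibitor, had a median of -0.08 over 60 genes, with 3 lower and 0 higher. CDK7, the kinase of TFIIH, fell from 26.4, 40.2 and 25.1 CPM to 8.93, 11.4 and 8.70 CPM in control cells. Knockdown levels went from 32.9, 36.2 and 31.6 CPM to 6.05, 7.85 and 7.75 CPM. The lines overlapped with DMSO and the knockdown libraries were the lower ones with triptolide, with an interaction of -0.57 ± 0.21 (adjusted p = 0.988). GTF2A1, a subunit of TFIIA, had -0.53 ± 0.22, and MEPCE, which caps the 7SK RNA, had -0.44 ± 0.20.

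Since loss of ADAR1 can start an interferon response, the interferon-stimulated genes were read in the same way. They had a median of -0.15 over 65 genes, 48 of them below 0. At an unadjusted p under 0.05, 3 of the 65 were lower and 0 higher, against 2.29% and 2.04% of all genes tested. RSAD2, which encodes the antiviral enzyme viperin, stood at 1.93, 2.66 and 0.0914 CPM with DMSO and 1.71, 2.01 and 0.378 CPM with triptolide in control cells. Knockdown replicates 1, 2 and 3 had 14.7, 9.60 and 0.537 CPM with DMSO and 3.43, 3.04 and 0.202 CPM with triptolide. Replicate 3 was low in all 4 groups, and within a number the knockdown library was the higher one with DMSO. That line difference was called (log2 2.35, adjusted p = 0.000367, edgeR) and enters the interaction with the opposite sign. RSAD2 fell 3.51-fold in knockdown cells (adjusted p = 6.84e-05) and had a change of -0.06 in control cells (adjusted p = 0.897), with an interaction of -1.75 ± 0.46 (adjusted p = 0.988) and -1.93, -1.25 and -3.22 by replicate number. The gene overlaps CMPK2 on the opposite strand. CXCL10, an interferon-induced chemokine, had 14 to 102 counts per group and an interaction of -2.85 ± 0.98, or -1.59 ± 0.97 against untreated libraries. SAMD9, an antiviral restriction factor, had -0.86 ± 0.30. The list median was -0.41, 0.06 and -0.19 by replicate number, so it did not keep its sign, and it was 0.03 without replicate 1.

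Sensors and binding proteins of double-stranded RNA had a median of -0.11 over 27 genes, with ADAR as the 1 gene lower. TLR3, an endosomal receptor of double-stranded RNA, fell 2.69-fold in control and 5.45-fold in knockdown cells, with -1.02 ± 0.52, or -0.495 without control triptolide replicate 1. Among mRNAs known to be edited, the median was -0.02 over 37 genes, or 0.04 with the untreated reference. NEIL1, a DNA glycosylase with an edited codon, stood at 20.3, 14.6 and 10.6 CPM with DMSO and 11.3, 5.07 and 5.39 CPM with triptolide in control cells. The knockdown libraries held 16.2, 12.05 and 5.93 CPM with DMSO and 13.5, 7.01 and 5.63 CPM with triptolide, overlapping control in both treatments. NEIL1 fell 2.14-fold in control cells, and the change of -0.39 in knockdown cells did not pass (adjusted p = 0.0781), an interaction of 0.71 ± 0.26 (adjusted p = 0.988) that was 0.17 ± 0.26 against untreated libraries. NEIL1 overlaps MAN2C1 on the opposite strand, which averaged 52.4 CPM and had an interaction of 0.76 ± 0.20, so the limit given for MAPK8IP3 holds here too. GABRA3, a GABA receptor subunit edited in brain, had 0.51 ± 0.21, and AHR, the aryl hydrocarbon receptor, had -0.83 ± 0.37. Editing itself was not measured in these counts.

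Survival and stress genes were read next. BIRC3, an inhibitor of apoptosis and NF-kB target, stood at 3.45, 5.75 and 2.44 CPM with DMSO and 3.15, 6.16 and 2.03 CPM with triptolide in control cells. In knockdown cells it stood at 8.04, 6.86 and 4.61 CPM with DMSO and 2.71, 3.66 and 2.09 CPM with triptolide. For each number it was higher in the knockdown with DMSO, and the lines overlapped in both treatments. BIRC3 fell 2.35-fold in knockdown cells and had a change of -0.07 in control cells, with an interaction of -1.17 ± 0.32 (adjusted p = 0.988). Against untreated libraries the interaction of BIRC3 was -0.71 ± 0.33. BCL2, the apoptosis inhibitor and estrogen receptor target, rose 1.82-fold in control cells, with -0.94 ± 0.42, or -0.51 without knockdown DMSO replicate 1.

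The NF-kB list had a median of -0.16 over 28 genes and the BCL2 family and apoptosis list -0.06 over 40, each with 2 lower and 0 higher. In the first, the other gene was the cytokine gene IL1B, with 0 counts in control DMSO libraries and 27, 8 and 19 in the other groups, in the order control triptolide, knockdown DMSO and knockdown triptolide. Targets of p53 had a median of -0.17 over 37 genes with 0 genes on either side, estrogen receptor targets 0.04 over 48 with 2 lower, ATF4 targets 0.03 over 42 with 3 lower, and heat shock chaperones -0.15 over 49 with 0 on either side. With the untreated reference these 4 medians were -0.01, -0.01, 0.12 and 0.0006. Named for these lists were BTG2 (-0.47 ± 0.24) and ZMAT3 (-0.49 ± 0.27) for p53, the potassium channel KCNK5 (-0.52 ± 0.24) for the estrogen receptor, the amino acid carrier SLC38A2 (-0.62 ± 0.18) and the phosphatase subunit PPP1R15A (-0.57 ± 0.23) for ATF4, and the chaperones DNAJA1 (-0.51 ± 0.25) and DNAJB1 (-0.46 ± 0.23).

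Other lists had positive medians. Cytoplasmic ribosomal protein genes had a median of 0.16 over 81 genes, 75 of them above 0, and 2 were higher at an unadjusted p under 0.05 against 0 lower. In control cells 74 of the 81 rose with triptolide and in knockdown cells 77, by a median of 0.63 and 0.80. RPL23A had an interaction of 0.72 ± 0.30 and RPL28 of 0.51 ± 0.22. Nuclear genes of oxidative phosphorylation had a median of 0.15 over 77, with 62 above 0 and 0 genes on either side of the test. The complex I subunits NDUFS7 and NDUFB8 had 0.72 ± 0.37 and 0.49 ± 0.25. Host genes of small nucleolar RNAs had a median of 0.05 over 31, with 5 higher and 0 lower: ZFAS1 (0.40 ± 0.15), SNHG8 (0.54 ± 0.21), SNHG22 (1.55 ± 0.60), GAS5 (0.64 ± 0.26) and SNHG32 (0.34 ± 0.16). With untreated libraries in place of DMSO the median of the host genes was -0.08, while those of the ribosomal protein and oxidative phosphorylation lists were 0.19 and 0.19.

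Mitochondrially encoded mRNAs, which are made by a polymerase of their own inside the organelle, rose in both lines and had positive interactions for 13 of 13 genes, with a median of 0.45. The median was 0.47, 1.11 and 0.25 by replicate number, and the 13 genes are not 13 independent observations. MT-CO1, a subunit of cytochrome oxidase, stood at 2486, 3676 and 4724 CPM with DMSO and 4846, 4556 and 10484 CPM with triptolide in control cells. In the knockdown line the levels were 2119, 2392 and 2249 CPM with DMSO and 6406, 4496 and 7975 CPM with triptolide. The knockdown libraries were the lower ones with DMSO, and the lines overlapped with triptolide. MT-CO1 rose 1.76-fold and 2.70-fold, with an interaction of 0.62 ± 0.27 (adjusted p = 0.988), and MT-ATP6 had 0.69 ± 0.37, or 0.33 and 1.24 without control triptolide replicate 2 and replicate 3. With untreated libraries in place of DMSO the direction turned: the list median became -0.40, MT-CO1 -0.14 ± 0.24 and MT-ATP6 -0.27 ± 0.34. The share of mitochondrial mRNA in all counts was 0.978 to 1.37% with DMSO and 0.826 to 2.21% with triptolide in control cells, and 0.752 to 0.894% and 1.03 to 1.66% in knockdown cells.

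Zinc finger genes named ZNF, many of which have unstable mRNAs, had a median of -0.20 over 500 genes. Of these, 379 were below 0, 39 were lower and 3 higher at an unadjusted p under 0.05. In control cells 257 of them fell with triptolide and in knockdown cells 307. The median was -0.21, -0.26 and -0.10 by replicate number and -0.17 with the untreated reference. ZNF217, an amplified oncogene of breast cancer, stood at 77.0, 115 and 98.8 CPM with DMSO and 23.4, 41.3 and 28.3 CPM with triptolide in control cells. Knockdown replicates 1, 2 and 3 had 90.8, 116 and 97.4 CPM with DMSO and 14.001, 27.7 and 22.0 CPM with triptolide. Levels overlapped in both treatments, falls were 3.17-fold and 4.92-fold, and the interaction was -0.63 ± 0.19 (adjusted p = 0.988). ZNF322 had -0.85 ± 0.26.

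Replication-dependent histones had the lowest median changes of the lists in both lines, -3.51 in control and -3.74 in knockdown cells, and a median interaction of -0.19 over 53 genes, or -0.52 with the untreated reference. H2AC4 fell 16.2-fold and 36.5-fold (-1.17 ± 0.44), while H4C9 rose 1.73-fold and 2.80-fold (0.70 ± 0.21). Small RNAs were read only as far as a total RNA library holds them. Small nucleolar and Cajal body RNAs had a median of 0.07 over 109 genes, with -0.25, 0.55 and -0.20 by replicate number, and transcripts of RNA polymerase III 0.09 over 12, with 0.48, 0.44 and -0.71. Both turned negative with the untreated reference, at -0.62 and -0.72, so neither median kept a direction. RNU6-2, a U6 spliceosomal RNA, had 0.54 ± 0.26, RNY5, a Y RNA, 1.36 ± 0.74, and SNORD100 and SNORD101, which lie in introns of RPS12, had 3.08 ± 1.03 and 2.01 ± 0.89 on 2 to 99 counts per group. By replicate number SNORD101 had 1.82, -2.02 and 3.15.

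**Figure D5:**
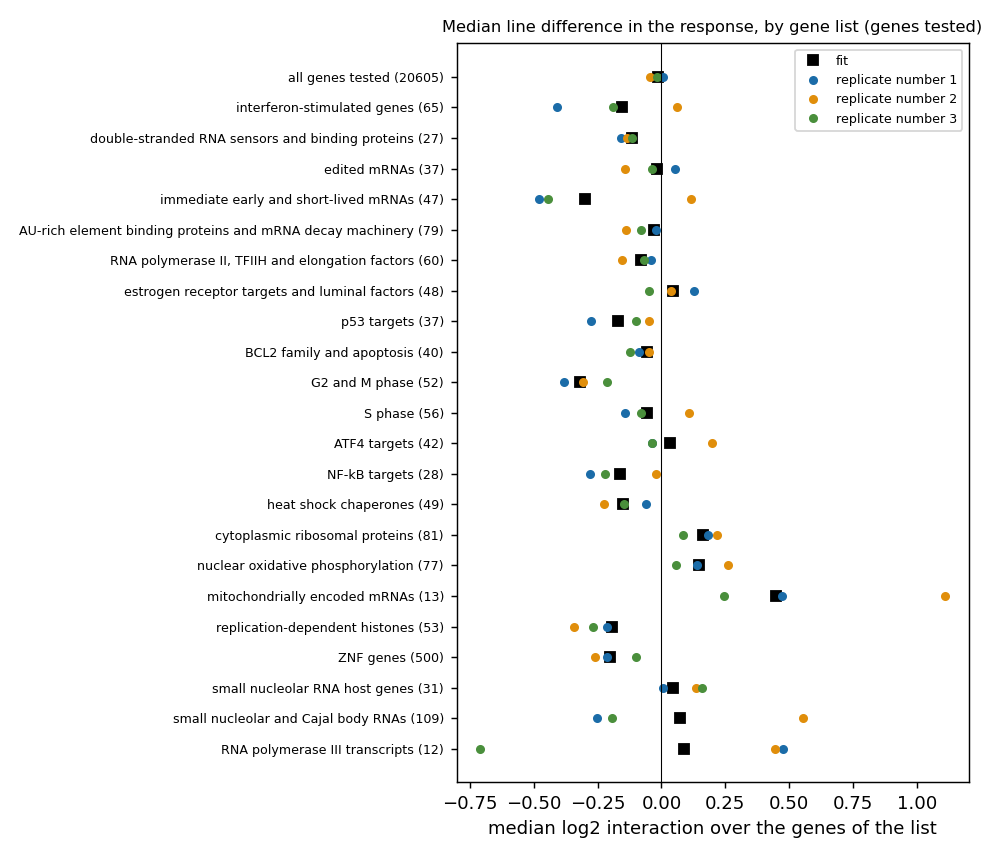
Median interaction (log2, x axis) of each gene list, with the number of genes tested in parentheses; black squares are medians of the fitted values and colored points medians for each replicate number. The G2 and M phase list lies below 0 for all 3 numbers with a fitted median of -0.32, and the mitochondrially encoded mRNAs lie above 0 with 0.45, while the median over all genes tested is -0.01.

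The same contrast can be read as a change of the difference between the lines. With DMSO 78 genes were higher (0.379%) and 67 lower (0.325%) in knockdown than in control cells, and with triptolide 89 were higher (0.432%) and 55 lower (0.267%). These counts rest on the same libraries as the interaction and add no separate evidence to it. BBS10 was called lower in knockdown cells with triptolide (log2 -0.99, adjusted p = 0.03) and not with DMSO (0.23, adjusted p = 0.851), and SLC38A2 likewise (-0.61, adjusted p = 0.0371, against 0.01, adjusted p = 1). ADAR, given above, belongs to the same kind. For none of these did the test of the difference between treatments, which is the interaction, pass.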

How the data were processed

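Per the labels, total RNA libraries came from a stranded kit. The deposited values are raw counts of reads per gene, which the authors, per the submitters' processing notes, made with STAR 2.4.2a on hg19 and HTSeq 0.6.1. Of 60252 gene IDs, 58821 matched GENCODE release 44 on GRCh37. The 5 tallies outside genes (26.0 to 35.4% of all tallied, unmatched and ambiguous reads included) were left out. Counts of 12 libraries were filtered (filterByExpr), TMM-scaled and fitted with edgeR 4.0.16 (R 4.3.3) by group and replicate number, with 6 residual degrees of freedom. Gene variances were moderated over all genes, which gave 17.68 total degrees of freedom for tests and intervals. Tests are two-sided, p-values are Benjamini-Hochberg adjusted over 20605 genes, and SE is the log2 value over the root of F. Values by replicate number used log2(CPM + a pseudocount of 0.5 scaled to depth). Same-numbered libraries paired: their residuals correlated at r = 0.45 to 0.82 (18 pairs), others at -0.53 to -0.07 (36). Residuals were taken from group means and cancel within a group, so the negative range is no separate evidence of pairing. Replicates were not copies (lowest chi-square per degree of freedom 57.6). Lists were described by counts and medians. Members, lists and rules were chosen with earlier results of these data known. Named were the ADAR enzymes, the 5 smallest p in each direction since none was called, and 2 per list; others are said to be picked after their values were seen. Alternatives were no block, DESeq2 1.42.0, its size factors, TMM without mitochondrial ribosomal RNA, no filter, all 18 libraries, the untreated reference, and leaving out libraries.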

Additional observations from a re-analysis of the deposited data

How the results depend on the processing

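Genes called for the interaction numbered 0 with no replicate block, with median-of-ratios size factors, with TMM without mitochondrial ribosomal RNA and without any one replicate number. They numbered 19 without the low-count filter (14 higher, 5 lower), 4 by DESeq2 (4 higher), 1 with all 18 libraries and 1 with the untreated reference (CUBN in both), and 0 to 2 on leaving out libraries. Lower calls stayed at 0 on every leave-out.

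Without the replicate block, triptolide calls went from 11246 to 6632 in control and from 12321 to 7664 in knockdown cells. The line difference with DMSO went from 145 calls to 16 without the block, 364 without the filter, 273 by DESeq2 and 86 for untreated cells in place of DMSO, with 39 to 235 on leaving out libraries. With triptolide it went from 144 to 12, 276, 267 and 80, with 29 to 164.

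Each named gene's interaction was read under 22 alternatives. Of these values, 1 per gene and alternative, 26 turned sign, 19 passed the threshold that the reported value missed, and 1297 did neither. H1-4 gave 7 of the 26, H1-3 gave 6, and ADARB1 and H2BC14 gave 4 each, while CUBN gave 8 of the 19. With the untreated reference MT-CO1 became -0.14, MT-ATP6 -0.27, RNY5 -0.50 and IL1B, at 0 counts in control DMSO cells, 1.84 in place of -4.81. On leaving out libraries the values near 0 ranged from -0.21 to 0.16 for ADARB1, -0.42 to 0.18 for H1-3, -0.93 to 0.16 for H1-4, -0.48 to 0.17 for H2BC14 and -0.52 to 0.056 for TEX14. The cause was not tested. Over all alternatives the adjusted p ran from 2.19e-14 to 1 for CUBN, from 8.19e-07 to 1 for COL6A3 and from 0.00595 to 1 for MAPK8IP3. The lowest values of CUBN and COL6A3 came from the fit without the filter, where the interactions were 3.16 and 2.98, close to those reported. Of 61 genes chosen, 41 had an interaction that moved by over 1.5 times under an alternative, 29 with the untreated reference and 29 on leaving out libraries. Among those not given above, BTG2 went from -0.47 to -0.24 without replicate 3, ZMAT3 from -0.49 to -0.22 without replicate 2, EXO1 from -0.59 to -0.34, DNAJA1 from -0.51 to -0.25 and RPL23A from 0.72 to 0.42 without control triptolide replicate 2, and H2AC4 from -1.17 to -1.95 without knockdown triptolide replicate 3. The untreated reference turned the sign of 7 of 22 list medians: edited mRNAs, estrogen receptor targets, heat shock chaperones, mitochondrially encoded mRNAs, small nucleolar RNA host genes, small nucleolar RNAs and RNA polymerase III transcripts. Genes under 1 CPM limit what these libraries can show. SE covers only the spread between replicates that the block leaves, with the variance of each gene moderated over all genes.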

Other observations

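Processed pseudogenes of ribosomal protein genes, a set made after the table of all genes had been seen, had a median interaction of 0.47 over 314 genes tested. Of these, 237 were above 0, 34 were higher and 0 lower at an unadjusted p under 0.05, and 0 were called by edgeR. Triptolide raised 65 of them in control and 166 in knockdown cells, with median changes of 0.45 and 0.93. Such copies resemble the mRNAs of their parent genes, so reads can be placed on either. The median was -0.02, 0.94 and 0.28 for replicates 1, 2 and 3, and 0.03 with the untreated libraries in place of DMSO. It was 0.15 without replicate 2.

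Without the low-count filter the 19 calls included transcripts of the mitochondrial ribosomal RNAs, MT-RNR2 (0.36) and MT-RNR1 (0.46), and the nuclear copies MTRNR2L1 (1.16) and MTRNR2L10 (1.18), whose reads may be shared. They also included the signal recognition particle RNA copies RN7SL4P (-1.80) and RN7SL5P (1.57), which moved in opposite directions.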
